A study of Mus musculus with 18 samples.

Results

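Kinesin, dynein and myosin motor genes were taken from a table of polysome-bound mRNA in mouse embryonic stem cells (ESCs) by their symbols: Kif followed by a digit, Dync followed by a digit, Dynl, or Myo followed by a digit. Names that carry -ps, which marks pseudogenes, were left out (3 genes). This gave 81 genes of the 51467 in the table: 65 heavy chains, which hold the motor domain, 9 dynein light chains, 5 dynein intermediate and light intermediate chains, and 2 genes that the symbols brought in but that encode no motor subunit, Kif1bp and the antisense transcript Kif16bos. The study asked how loss of microRNAs alters translation. It compared wild type (WT) ESCs with Dgcr8 knockout (KO) ESCs, which lack the DGCR8 protein that cuts primary microRNA transcripts and therefore lack mature microRNAs. Both were grown with serum, LIF and 2i and were given cycloheximide before lysis, and the study names the WT line as V6.5 and the KO line as one made earlier in the same laboratory. The lysates were spun through sucrose gradients, and each of 3 gradients per genotype was cut into monosomes (1 ribosome), low polysomes (2 to 4 ribosomes) and high polysomes (4 or more), so that 6 groups of 3 libraries make the 18. Each genotype is thus represented by 1 line, and whether its gradients came from separate cultures was not given in the sources used here. The p-values below therefore measure the spread between gradients, which may be technical.

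Motor proteins turn ATP into steps along the cytoskeleton. Kinesins and cytoplasmic dynein walk on microtubules, kinesins mostly towards the growing plus ends and dynein towards the minus ends, and myosins pull on actin filaments. The motor domain sits in the heavy chain, which in all 3 families is encoded by a long mRNA, while dynein also needs small light chains that dock on its intermediate chain and are shared with other protein complexes. Dividing stem cells rely on a set of mitotic kinesins that build the spindle, move chromosomes and complete cytokinesis. In a polysome gradient an mRNA sediments with the ribosomes it carries, and a short coding sequence has room for fewer of them.

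Levels are given as CPM (reads of a gene scaled to a fixed library size) after TMM scaling, from reads that each mark the 3′ end of a transcript. The translation level of a gene is the log2 ratio of its high polysome to its monosome level, and the change in translation level is that of KO minus that of WT. A gene was tested where at least 3 libraries reached 3 CPM, which 12851 genes did, 60 of the 81 among them (48 heavy, 7 light, 4 intermediate chains and Kif1bp). It was called higher or lower where limma's adjusted p was under 0.05 and the log2 change exceeded 1 in size. The libraries held 1151649 to 4984833 counted reads, and in the smallest a count of 3 corresponded to 2.60 CPM. Reads of Dgcr8 remained in KO, at 47.3 to 52.0 CPM in monosomes against 68.4 to 79.6 in WT, at 39.0 to 58.6 against 51.8 to 70.0 in low polysomes and at 8.73 to 22.99 against 26.1 to 29.6 in high polysomes. Where the deletion lies relative to these 3′ reads was not given in the sources used here, so they do not check it. All 9 ESC markers were tested, with a summed level of 3399 to 5893 CPM in WT and 3367 to 4256 in KO. The summed markers of fibroblasts, primitive endoderm, multiciliated cells and muscle did not exceed 21.5, 10.8, 7.23 and 6.45 CPM in any library. A level is a share of the RNA in its fraction, so fewer molecules per cell and a smaller share of cells that express a gene cannot be told apart.

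The KO cells lack the ESCC microRNAs, the family that dominates the microRNAs of mouse ESCs. Its members are shown because they share a seed, the stretch from base 2 to base 8 that pairs with target mRNAs, printed in capitals (RefSeq, GRCm38.p6):
mmu-miR-291a-3p (chr7:3218968-3218989, plus strand): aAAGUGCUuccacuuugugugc
mmu-miR-294-3p (chr7:3220691-3220712, plus strand): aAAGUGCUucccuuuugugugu
mmu-miR-295-3p (chr7:3220815-3220837, plus strand): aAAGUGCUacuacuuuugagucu
mmu-miR-302b-3p (chr3:127545275-127545297, plus strand): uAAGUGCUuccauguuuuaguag
mmu-miR-302d-3p (chr3:127545665-127545687, plus strand): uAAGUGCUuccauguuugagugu

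The complement of that seed, AGCACTT, was searched on the sense strand of the 3′ UTR of each gene's principal transcript (GENCODE M21, GRCm38). It occurred in 11 of the 60 motor genes tested (18.3%) and in 1890 of 11763 protein-coding genes tested (16.1%). The motor genes with it were Dync1li2, Dynll1, Kif3b, Kif3c, Kif5b, Kif5c, Kif13a, Kif26b, Myo1d, Myo9a and Myo19. Windows of 30 bases are shown for Dynll1 and Myo9a, whose translation level changed, for Dync1li2, which was higher in KO polysomes, and for Kif3c, the only motor gene tested with an A after the match (AGCACTTA). Capitals mark the match:
Dynll1 (chr5:115298209-115298238, minus strand): cctgtcagcctAGCACTTgggaagctaagg
Myo9a, first site (chr9:59926963-59926992, plus strand): tcctggaactcAGCACTTgacacacattct
Myo9a, second site (chr9:59928698-59928727, plus strand): atgaaatcagcAGCACTTtgtaatttcctt
Dync1li2 (chr8:104419413-104419442, minus strand): ccatgaaacgtAGCACTTcttctcttaagg
Kif3c (chr12:3405279-3405308, plus strand): tttctgctgtcAGCACTTAacaattcacta

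The letters were not in the 3′ UTRs used for Dynll2, Dynlrb1, Dynlt1f, Kif1b and Myo9b, the other motor genes whose translation level changed. The median change in translation level was 0.37 over the 11 motor genes with the match and 0.31 over those without. Among the 48 heavy chains alone the order was reversed, at 0.37 over the 9 with the match and 0.49 over those without. Of the 7 light chains 1 had the match. Over all protein-coding genes tested the medians with and without the match were 0.12 and -0.02. In high polysomes the median log2 ratio of KO to WT was 0.60 over the motor genes with the match and 0.07 over those without. Among the heavy chains these medians were 0.60 and 0.15, and over all protein-coding genes tested they were 0.25 and -0.10. A match is a stretch of letters, and binding was not measured here.

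In KO the ratio of high polysome to monosome level was lower than in WT for the dynein light chain mRNAs, 4 of 7 past the test, while most heavy chains of the 3 motor families had small differences in the other direction. Of the 60 motor genes tested, 3 rose in translation level (Kif1b, Myo9a and Myo9b), against 6.29% of all genes tested, and 4 fell (Dynll1, Dynll2, Dynlrb1 and Dynlt1f), against 8.81%. Over the whole set these shares are close to the background. All 4 that fell were among the 7 light chains tested, and all 3 that rose were among the 48 heavy chains. Every light chain had a value below 0, from -1.98 to -0.65 with a median of -1.74. Of the 48 heavy chains 36 had a value above 0, with a median of 0.44, where 50.3% of all genes tested did. Scaled by total counts, which moved the median change of all genes by -0.33, 1 motor gene rose and 5 fell, all 7 light chains were still below 0 and 27 of the 48 heavy chains were above it.

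**Figure D1:**
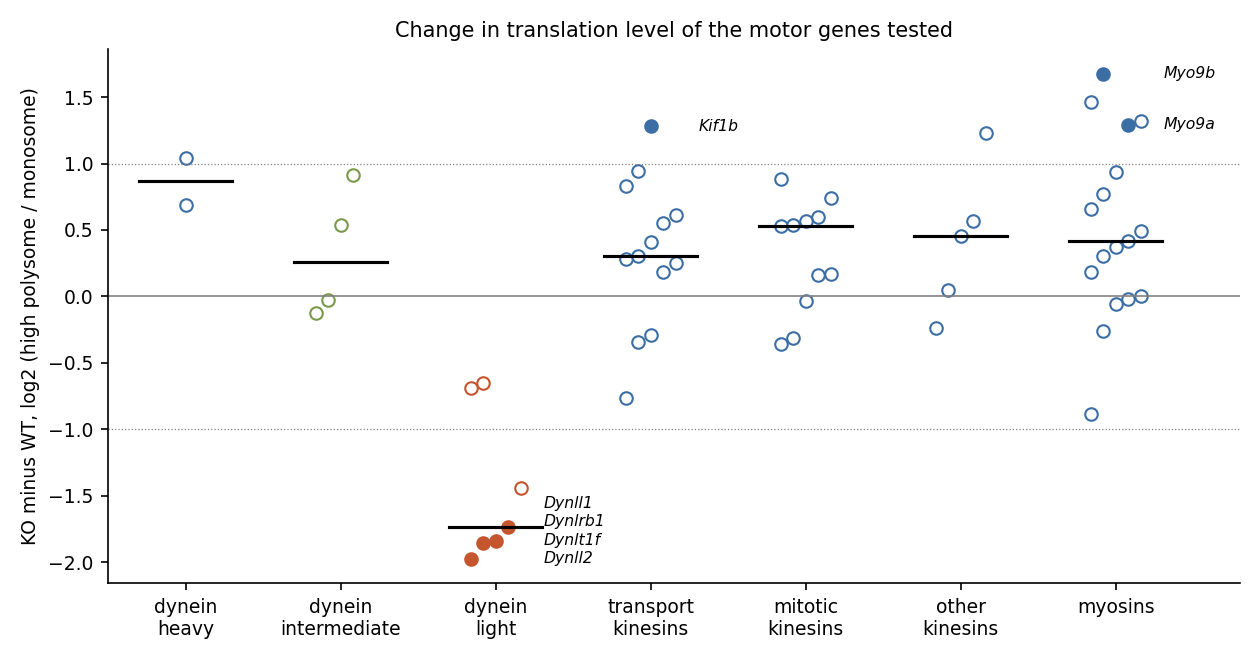
Change in translation level (KO minus WT, log2 of high polysome over monosome) of 59 motor genes tested, 1 point per gene, in columns by role. Filled points were called, dotted lines mark a log2 change of 1 in size and black bars are column medians. The light chain column lies wholly below 0, with a median of -1.74, while the medians of the other columns lie between 0.26 and 0.87.

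Dynll1 and Dynll2 encode the LC8 light chains, which bind the dynein intermediate chain and also serve as dimerization hubs for many other proteins. In the monosomes Dynll1 (chr5:115297110-115300999, minus strand, 89 codons) was at 427, 408.5 and 436 CPM in WT and at 582, 608 and 584 CPM in KO. In high polysomes it was at 217, 184.5 and 221 CPM in WT and at 84.97, 78.0 and 97.2 CPM in KO. The genotypes did not overlap in either fraction: KO was higher in monosomes and lower in high polysomes. The translation level of Dynll1 was -0.98, -1.14 and -0.98 in the WT gradients and -2.76, -2.95 and -2.58 in the KO gradients, and the change of -1.74 ± 0.17 (SE, n = 3 gradients per genotype) had a limma adjusted p of 4.15e-10.

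Dynll2 (chr11:87979525-87987533, minus strand, 89 codons) showed the same crossing with flatter WT values. In monosomes it was at 342, 341 and 291 CPM in WT and at 715, 720 and 714 CPM in KO. In high polysomes it was at 328, 318 and 350 CPM in WT and at 189, 189 and 181 CPM in KO. In WT the share of Dynll2 was thus about equal in monosomes and high polysomes, with a translation level of 0.03 ± 0.11 (SE). In KO every monosome library exceeded every high polysome library. The change in translation level was -1.98 ± 0.15 (SE, limma adjusted p 2.17e-12), the lowest among the motor genes. Dynll2 was also called higher in KO monosomes (1.141 ± 0.11, limma adjusted p 3.31e-11), while its high polysome difference of -0.83 ± 0.11 stayed under the fold threshold.

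Dynlrb1 (chr2:155236533-155250277, plus strand, 96 codons) encodes a roadblock light chain, the second of the 3 light chain families on the dynein tail. Its monosome level was 145, 132 and 124 CPM in WT and 204, 141 and 184 CPM in KO, so that the ranges overlapped. Its high polysome level was 99.9, 91.9 and 102.5 CPM in WT and 43.0, 34.5 and 30.6 CPM in KO, with no overlap. The change in translation level was -1.84 ± 0.20 (SE, limma adjusted p 7.08e-09).

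For Dynll1, Dynll2 and Dynlrb1 the log2 ratio of low polysomes to monosomes changed sign between the genotypes. The other light chains tested did not show this. For Dynlt1a and Dynlt1b the ratio was below 0 in all 3 WT gradients. For Dynlt1f it took both signs in WT, and for Dynlt3 it took both signs in KO. In WT the low polysome level of Dynll1 was 610 ± 10.5 CPM (SD, n = 3), above its monosome level of 424 ± 14 CPM, and in KO it was 315 ± 42.4 CPM, below 591 ± 14.7 CPM in monosomes. The log2 ratio of low polysomes to monosomes of Dynll1, Dynll2 and Dynlrb1 was above 0 in all 3 WT gradients, from 0.50 to 1.02 over the 3 genes. It was below 0 in all 3 KO gradients, from -1.11 to -0.35. The levels of Dynll1, Dynll2 and Dynlrb1, as shares of each fraction, were therefore highest in low polysomes in WT and in monosomes in KO. The amount of RNA per fraction was not given in the sources used here, so where most of each mRNA lay is not shown.

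**Figure D2:**
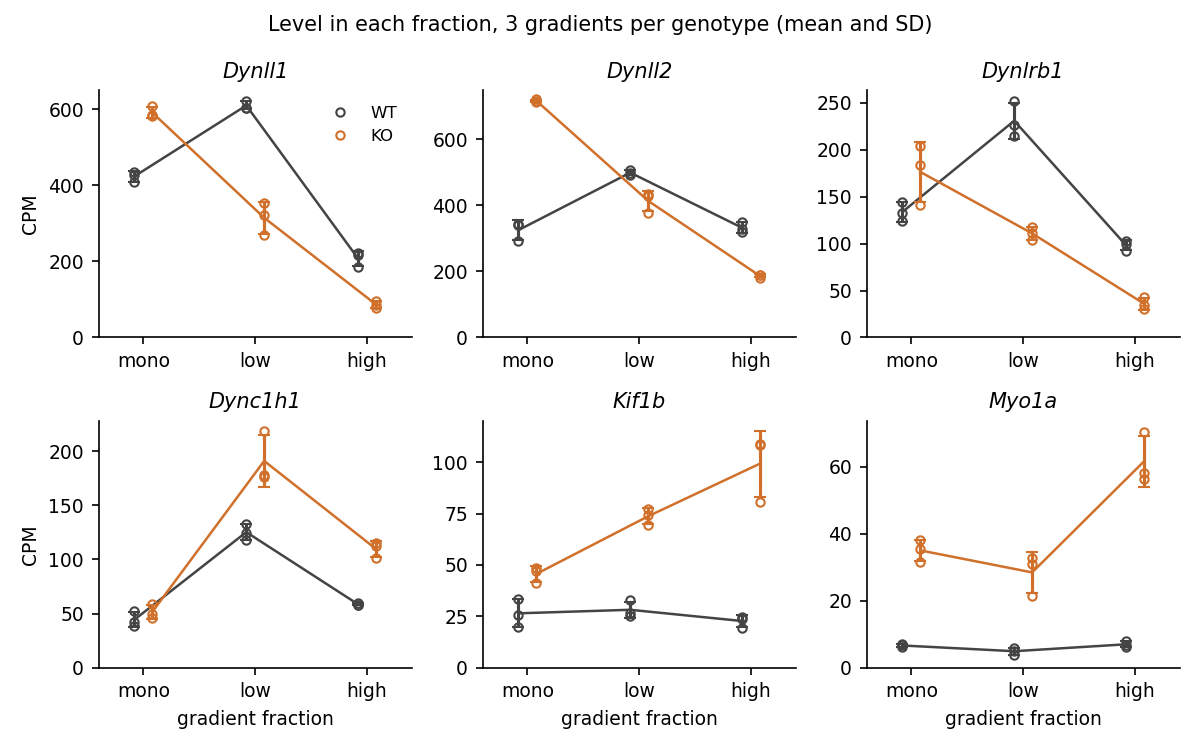
Level (CPM) of 6 motor genes in monosomes, low and high polysomes. Open circles are single libraries, lines join the means and bars are SD over 3 gradients. The levels of Dynll1, Dynll2 and Dynlrb1 were highest in low polysomes in WT and in monosomes in KO. That of Dync1h1 was highest in low polysomes in both. Kif1b and Myo1a were higher in KO, Kif1b most in high polysomes.

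The third light chain family is encoded by Dynlt3 and by near-identical Dynlt1 copies that lie together on chromosome 17 (Dynlt1a from 6306340 to 6317500, Dynlt1b from 6430112 to 6436296 and Dynlt1f from 6646602 to 6655900). Reads that aligned to more than 1 place were discarded, so these counts cover only what tells the copies apart and their split between copies is uncertain. Dynlt1f was counted 15, 9 and 11 times in WT monosomes, 10, 21 and 13 times in WT high polysomes, 20, 15 and 17 times in KO monosomes and 3, 5 and 4 times in KO high polysomes. On these few reads its change in translation level was -1.85 ± 0.68 (SE, limma adjusted p 0.0362), a call that was lost without WT gradient 2 (-1.32, adjusted p 0.211), KO gradient 1 (-1.58, adjusted p 0.0902) or KO gradient 3 (-1.75, adjusted p 0.0959). Dynlt1a (-1.44 ± 0.77, limma adjusted p 0.166), Dynlt1b (-0.69 ± 0.93, 0.627) and Dynlt3 (-0.65 ± 0.55, 0.407) did not pass the test. Dynlt1a passed without KO gradient 2, at -2.44 (adjusted p 0.0247), and the value of Dynlt1b turned to 0.38 there.

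Dynlt1b was the only motor gene called lower in KO in all 3 fractions. It was counted 26, 18 and 15 times in WT monosomes and 3, 16 and 8 times in KO monosomes, 16, 14 and 14 times against 11, 5 and 3 times in low polysomes, and 13, 7 and 4 times against 4, 0 and 1 times in high polysomes. The log2 differences were -1.97 ± 0.46, -1.41 ± 0.52 and -2.66 ± 0.81 (SE, limma adjusted p 0.000751, 0.0208 and 0.00454). The last of these rests on 5 reads in KO, and its size depends on how the fit treats low counts. The low polysome call was lost without WT gradient 1 (-1.28, adjusted p 0.0546), without KO gradient 3 (-0.87, adjusted p 0.204) and with no filter (-1.38, adjusted p 0.063).

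The catalytic and adaptor subunits of dynein did not follow the light chains. Dync1h1, the motor subunit of cytoplasmic dynein 1 and the longest coding sequence in the set (4644 codons), was at 58.1, 58.0 and 59.6 CPM in WT high polysomes and at 101.5, 112.5 and 115 CPM in KO high polysomes. Its translation level was 0.46, 0.15 and 0.61 in WT and 1.13, 1.17 and 0.95 in KO, with no overlap. The change of 0.69 ± 0.22 (SE) had a limma adjusted p of 0.0149 and stayed under the fold threshold. Dync2h1, the heavy chain of the dynein that works inside cilia, had at most 20 reads in a library and a change of 1.04 ± 1.06 (SE).

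Of the 4 intermediate chains tested none was called in the change in translation level by limma, edgeR or DESeq2, and 2 had an unadjusted p under 0.05. Dync1li2, a light intermediate chain that links dynein to cargo adaptors, had a translation level of -0.06, -0.38 and -0.41 in WT and of 0.69, 0.48 and 0.74 in KO. Its change of 0.91 ± 0.19 (SE, limma adjusted p 0.000309) stayed under the fold threshold. It was, however, called higher in KO in low polysomes (1.04 ± 0.13, limma adjusted p 1.23e-08) and in high polysomes (1.42 ± 0.13, 1.85e-12). The low polysome value sat at the fold threshold and was not called without WT gradient 1 (0.93), without KO gradient 1 (0.98) or with the stricter filter (0.99). Its paralog Dync1li1 changed by -0.03 ± 0.17 (SE) in translation level, and its high polysome level was 281 ± 24.3 CPM (SD, n = 3) in WT and 269 ± 10.97 CPM in KO. The scaffold subunit Dync1i2 (0.54 ± 0.22, limma adjusted p 0.0572) and the ciliary subunit Dync2li1 (-0.12 ± 0.42, 0.866) did not pass.

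Set against each other, the medians of heavy and light chains were apart in each gradient and further apart in KO. The median translation level of the 48 heavy chains was -0.10, 0.11 and 0.00 in the WT gradients and 0.43, 0.30 and 0.40 in the KO gradients. That of the 7 light chains was -0.98, -0.55 and -0.98 in WT and -2.22, -1.93 and -2.17 in KO. The difference between the medians was 0.84 ± 0.16 (SD, n = 3) in WT and 2.49 ± 0.22 (SD, n = 3) in KO. The genes themselves overlapped in WT, where 26 of the 48 heavy chains had a limma translation level above the highest light chain. In KO 46 of the 48 did. In the change in translation level the medians differed by 2.17, and 46 of the 48 heavy chains lay above the highest light chain. The exceptions were Myo1f (-0.88 ± 0.34) and Kif3c (-0.76 ± 0.50). Only 7 genes, of which the Dynlt1 copies may share reads, stand for the light chains, so this is a description with no test.

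**Figure D3:**
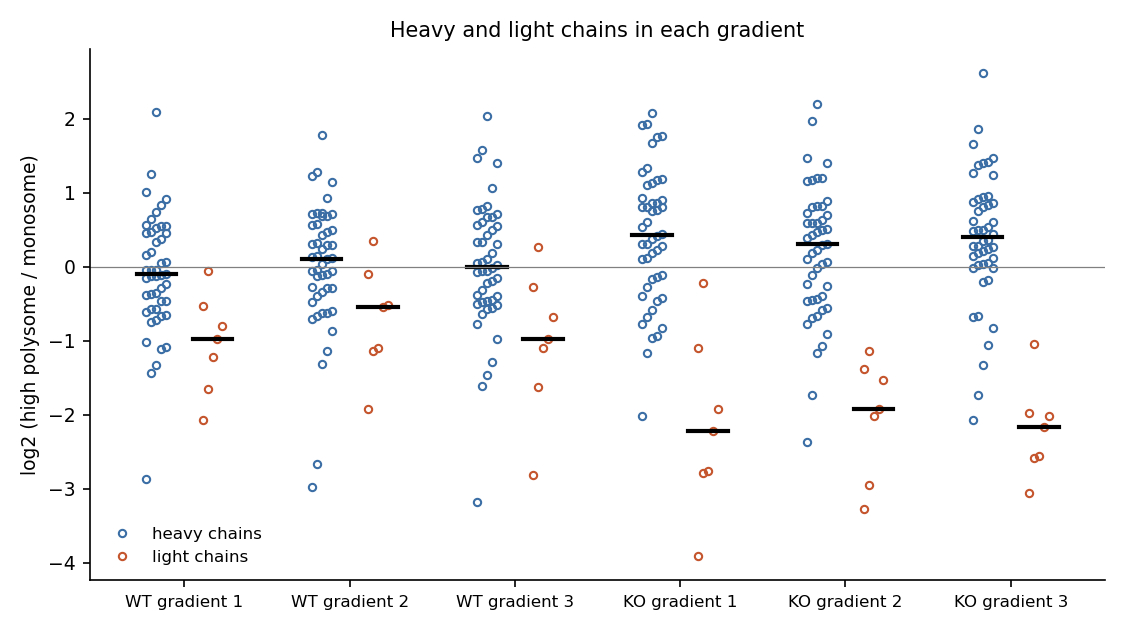
Translation level (log2 of high polysome over monosome) of 48 heavy and 7 light chains in each of the 6 gradients, 1 circle per gene, with black bars at the medians. The light chain median was -0.98 to -0.55 in WT and -2.22 to -1.93 in KO, while the heavy chain median was -0.10 to 0.11 in WT and 0.30 to 0.43 in KO.

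In total all 3 KO gradients lay above all 3 WT gradients for 15 of the 60 motor genes, against 20.3% of all genes tested, and below them for 5, against 21.4%. The 5 were Dynll1, Dynll2, Dynlrb1, Dynlt1f and Dynlt3, all of them light chains. Of the 15, 14 were heavy chains and the other was Dync1li2.

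The same order followed coding length across the transcriptome. The light chains have coding sequences of 267 to 348 nt and the heavy chains tested 1980 to 13932 nt. Over the 60 motor genes, coding length and the change in translation level had a Spearman rho of 0.58, and over all 11763 protein-coding genes tested the rho was 0.56. Within the 48 heavy chains it was 0.41. These are descriptions across genes that share the same libraries, and no p is given. The 419 protein-coding genes with at most 348 nt had a median change of -1.005 (quartiles -1.49 and -0.52), and 41.5% of them were called lower. Of these short genes 90% had a value below 0, as all 7 light chains did. The 3463 with at least 1980 nt had a median of 0.51 (quartiles 0.08 and 0.90), and 14.4% of them were called higher. Of these long genes 21.6% had a value below 0, as 12 of the 48 heavy chains did. The 4 light chains that were called, at -1.98 to -1.74, lay below the lower quartile of the short genes, and the other 3, at -1.44 to -0.65, lay inside their quartiles. The median of all 7 was -1.74, and the heavy chain median of 0.44 lay inside the quartiles of the long ones.

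**Figure D4:**
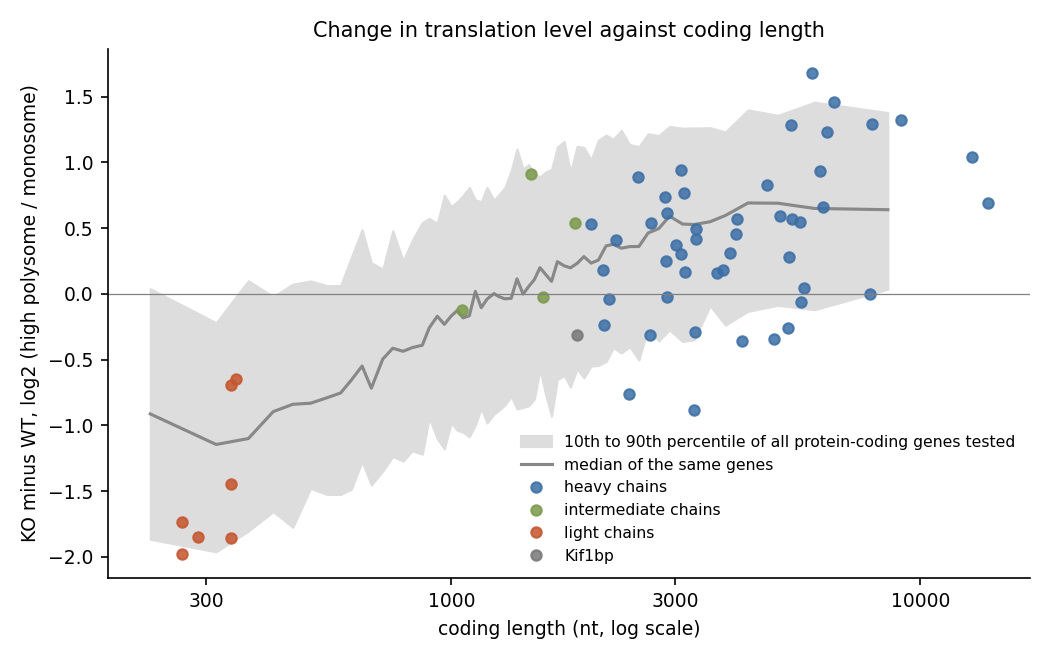
Change in translation level (log2) against coding length (nt, log scale) for the 60 motor genes tested. The grey line and band are the median and the 10th to 90th percentile of 11763 protein-coding genes in bins of equal size. Light chains sit at the short end between -1.98 and -0.65, and most heavy chains sit inside the band at the long end.

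Coding length went with the translation level itself more in KO than in WT. Over the 60 motor genes the rho of coding length with the translation level was 0.15, 0.21 and 0.23 in the WT gradients and 0.44, 0.42 and 0.41 in the KO gradients. Over the 11763 protein-coding genes it was 0.09, 0.12 and 0.07 in WT and 0.45, 0.39 and 0.48 in KO. The part of coding length in the values of single motor genes was not tested.

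Transport kinesins carry vesicles, organelles and RNA along microtubules, and 13 of the 15 listed were tested. Kif1b, a kinesin-3 motor that carries mitochondria and vesicle precursors, was the only one called in the change in translation level. In monosomes it was at 20.1, 25.8 and 33.6 CPM in WT and at 47.3, 48.5 and 41.1 CPM in KO, and in high polysomes at 19.5, 24.9 and 23.9 CPM in WT and at 109, 80.8 and 108 CPM in KO. KO was above WT in both fractions with no overlap, and the gap was wider in high polysomes. The change in translation level was 1.28 ± 0.27 (SE, limma adjusted p 0.000371), and the differences of KO against WT over monosomes, low and high polysomes were 0.82 ± 0.21, 1.39 ± 0.16 and 2.11 ± 0.17 (limma adjusted p 0.00223, 1.03e-09 and 8.16e-14). Scaled by total counts instead, the change in translation level of Kif1b was 0.96 and no longer called.

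The 3 kinesin-1 heavy chains differed in how they were distributed between fractions. Kif5b, the ubiquitous one, was at 48.2 ± 3.48 CPM (SD, n = 3) in WT monosomes and 79.5 ± 8.57 CPM in WT high polysomes, and at 48.9 ± 3.94 and 123.1 ± 15.4 CPM in KO. Its change in translation level was 0.61 ± 0.21 (SE, limma adjusted p 0.0261), under the fold threshold. Kif5a, better known from neurons and named here after its values were seen, had a larger share in monosomes than in high polysomes. In WT it was at 89.7, 63.2 and 66.3 CPM in monosomes and at 11.7, 9.37 and 6.69 CPM in high polysomes. Its translation level was -3.01 ± 0.24 (SE) in WT, the lowest of the motor genes, and -2.06 ± 0.17 in KO. Kif5c, with the same family fold and 956 codons, had a translation level of 1.09 ± 0.38 in WT and 1.35 ± 0.27 in KO.

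Kif3a and Kif3b, the paired motor subunits of kinesin-2 that also build cilia, had changes of 0.18 ± 0.43 and 0.41 ± 0.25 (SE, limma adjusted p 0.80 and 0.237). The translation level of Kif3b was -0.13, -0.12 and -0.32 in WT and 0.18, 0.18 and 0.27 in KO, so its gradients did not overlap, and those of Kif3a did. Kif1c, a second kinesin-3 motor, was called higher in KO monosomes (1.05 ± 0.19, limma adjusted p 2.05e-05; 0.97 and not called without WT gradient 3), with 0.72 ± 0.14 in low and 0.76 ± 0.14 in high polysomes. Whether these 3 differences differ from each other was tested only between high polysomes and monosomes, where the change was -0.29 ± 0.23 (limma adjusted p 0.387).

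The 11 mitotic kinesins are a chosen list within the symbol rule, and all were tested. The kinesins Kifc1 and Cenpe lie outside that rule and are not in the list. With limma none of the 11 was called in the change in translation level, and 4 had an unadjusted p under 0.05, all with values above 0. Outside the list Kifc1 was called higher (1.34 ± 0.30) and Cenpe was not called (-0.30 ± 0.29). Kif18b, a kinesin of spindle microtubule tips that is named after its values were seen, was at 0.89 ± 0.38 (SE, limma adjusted p 0.0796), and edgeR (1.02, adjusted p 0.0392) and DESeq2 (1.04, adjusted p 0.0493) called it higher. Its WT translation level was -0.97 ± 0.28 with limma and was called lower by edgeR (-1.03), by DESeq2 (-1.04) and with the replicate block (-1.05). Within each of the 3 fractions none of the 11 was called by limma with the settings above, by edgeR or by DESeq2. Unadjusted p under 0.05 was reached by 6 in monosomes and 6 in low polysomes, all lower in KO. In high polysomes it was reached by 1 higher and 3 lower. Limma's adjusted p was under 0.05 for 4 in monosomes and 4 in low polysomes, all lower in KO. In high polysomes it was so for 1 higher and 3 lower. All of these stayed under the fold threshold. Kif18a, named after its values were seen, came near it in high polysomes (-0.96 ± 0.23, limma adjusted p 0.000455). It was called lower there with the stricter filter (-1.01), without WT gradient 3 (-1.10) and with total counts (-1.18). Kif11 drives spindle poles apart. It was at 23.4, 38.7 and 35.4 CPM in WT monosomes and at 22.2, 20.2 and 24.7 CPM in KO monosomes, and at 22.6, 42.5 and 23.9 CPM in WT and 19.8, 19.9 and 27.4 CPM in KO high polysomes. The genotypes overlapped in both fractions, and the change in translation level was 0.17 ± 0.34 (SE, limma adjusted p 0.761).

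Kif23 and Kif20a bring the midzone together for cytokinesis, and Kif2c takes microtubules apart at centromeres. Kif23 had a change in translation level of 0.74 ± 0.24 (SE, limma adjusted p 0.0162), under the fold threshold, with 39.1 ± 6.74 CPM (SD, n = 3) in WT and 60.7 ± 7.40 CPM in KO high polysomes. Kif20a was at 119, 148 and 141 CPM in WT monosomes and at 88.9, 81.2 and 89.3 CPM in KO monosomes, without overlap. That difference was -0.65 ± 0.17 (SE, limma adjusted p 0.00295), again under the fold threshold, and the change in translation level of Kif20a was 0.54 ± 0.24 (0.0863). Kif2c changed by -0.04 ± 0.25 (0.937). In monosomes all 11 mitotic kinesins of the list had values below 0, from -0.74 to -0.09. Their median was -0.43, where the median over all genes tested was -0.05. Outside the list Kifc1 was at -0.35 and Cenpe at -0.001 in monosomes. With total counts 10 of the 11 stayed below 0.

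Of 12 further kinesins 5 were tested, and their changes in translation level ran from -0.24 to 1.23. By limma, edgeR and DESeq2 none of these was called, and none had an unadjusted p under 0.05. Kif26b was called higher in KO in low and high polysomes on few reads: 0, 3 and 1 in WT low polysomes against 15, 7 and 9 in KO, and 6, 1 and 4 in WT high polysomes against 19, 15 and 16 in KO. At these counts a fold is not given.

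Among the myosins 17 of 25 were tested, with changes in translation level from -0.88 to 1.68 and a median of 0.42. Myo9a and Myo9b, whose tails carry a domain that switches off small GTPases, were the 2 called, and both are named after their values were seen, since their counts were low. Myo9b was at 10.7, 12.9 and 7.07 CPM in WT and 6.67, 2.72 and 7.44 CPM in KO monosomes, and at 14.04, 10.5 and 10.8 CPM in WT and 17.9, 12.7 and 25.1 CPM in KO high polysomes. Each fraction alone overlapped between the genotypes, while the translation levels, -0.29 to 0.57 in WT and 1.33 to 1.97 in KO, did not. The change was 1.68 ± 0.50 (SE, limma adjusted p 0.00905), and without WT gradient 2 it was 1.39 (adjusted p 0.0887). Myo9a changed by 1.29 ± 0.48 (SE, limma adjusted p 0.0386), with 5.003 to 6.66 CPM in KO monosomes and 17.5 to 31.1 CPM in KO high polysomes against 7.74 to 9.73 and 13.3 to 15.9 CPM in WT. That call was lost without WT gradient 1, 2 or 3 (1.24, 1.31 and 1.31, adjusted p 0.0971, 0.0795 and 0.0868), without KO gradient 2 or 3 (1.13 and 1.32, adjusted p 0.0941 and 0.0817), with no filter (1.25, 0.0983) and with total counts (0.96, 0.13).

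Myo1a stood apart by its level. This class I myosin, known from the brush border of the gut, was at 6.70, 7.10 and 6.19 CPM in WT monosomes and at 31.7, 35.3 and 38.0 CPM in KO monosomes. In low polysomes it was at 4.94, 3.91 and 6.02 CPM in WT and at 31.0, 21.5 and 32.8 CPM in KO, and in high polysomes at 6.24, 6.85 and 7.96 CPM in WT and at 56.2, 58.1 and 70.3 CPM in KO. The genotypes did not overlap in any fraction, and Myo1a was the only motor gene called higher in all 3. The log2 differences were 2.33 ± 0.34, 2.502 ± 0.28 and 3.10 ± 0.24 (SE, limma adjusted p 6.18e-07, 4.53e-10 and 5.47e-14), and the change in translation level was 0.77 ± 0.42 (0.174).

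Other myosins moved less. Myo18a, a myosin with a PDZ domain, was at 39.5, 34.2 and 40.7 CPM in WT and 21.7, 19.03 and 23.9 CPM in KO monosomes, and at 58.1, 55.5 and 59.9 CPM in WT and 75.1, 51.6 and 64.4 CPM in KO high polysomes. It was lower in KO monosomes without overlap and overlapped in high polysomes. Its change in translation level was 0.94 ± 0.26 (SE, limma adjusted p 0.00554), under the fold threshold. Myo10, which gathers at the tips of filopodia, changed by 0.66 ± 0.19 (SE, limma adjusted p 0.0082), with a translation level of -0.15, 0.03 and -0.06 in WT and 0.53, 0.39 and 0.84 in KO.

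Myo6, the myosin that walks towards the minus end of actin, changed in translation level by 0.18 ± 0.40 (SE, limma adjusted p 0.778), the mitochondrial Myo19 by -0.02 ± 0.30 (0.969) and the vesicle motor Myo5a by -0.06 ± 0.83 (0.971). Myo5a was called lower in KO high polysomes, at 4.29, 10.8 and 6.69 CPM in WT and 3.64, 1.24 and 2.07 CPM in KO (-1.65 ± 0.44, limma adjusted p 0.00139).

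Within single fractions the shares of motor genes called were below those of all genes tested, differences that were not tested. In monosomes 3 of 60 were higher in KO, against 8.43% of all genes tested (Myo1a, Dynll2 and Kif1c), and 1 was lower, against 9.63% (Dynlt1b). In low polysomes 5 were higher, against 11.4% (Myo1a, Kif1b, Kif21a, Kif26b and Dync1li2), and 6 were lower, against 13.6%, of which 5 were light chains (Dynlrb1, Dynlt1a, Dynlt1b, Dynlt1f and Dynlt3) and the other was Myo5c. In high polysomes 8 were higher, against 15.1%, and 6 were lower, against 17.9%. The 8 were Dync1li2, Kif1b, Kif5a, Kif21a, Kif26b, Myo1a, Myo1d and Myo7a, and the 6 were Myo5a and the light chains Dynll1, Dynlrb1, Dynlt1a, Dynlt1b and Dynlt1f. Leaving out 1 gradient lost the call of Kif1c in monosomes, of Dync1li2, Dynlrb1, Dynlt1b, Dynlt1f and Dynlt3 in low polysomes, and of Kif5a and Kif26b in high polysomes. Other fits added calls, of which those by edgeR and DESeq2 are given here. Dynlt3 was called lower in high polysomes by edgeR (-1.01, adjusted p 0.0169) and DESeq2 (-1.01, adjusted p 0.0256). Myo5a was called lower in monosomes by edgeR (-1.69, adjusted p 0.039) and DESeq2 (-1.73, adjusted p 0.0445). With the replicate number as a block limma called both as well. The names in these lists beyond the rule for named genes were given after their values were seen. Myo1d, Kif21a and Myo7a were called on few reads, with mean counts of 9.67, 12.3 and 13.4 over the libraries. These comparisons share libraries with the change in translation level and are not separate evidence.

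Between KO and WT the median heavy chain differed by -0.14 among monosomes, by -0.01 among low polysomes and by 0.30 among high polysomes. The median light chain differed by -0.19, -1.21 and -1.47, beside medians over all genes tested of -0.05, 0.00 and -0.08. In both polysome fractions all 7 light chains had values below 0, and in monosomes 4 of 7 did.

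The translation level within each genotype compares the share of a gene in high polysomes with its share in monosomes. In WT 4 of 60 were called higher in high polysomes than in monosomes, against 10.7% of all genes tested (Kif1bp, Kif5c, Myo6 and Dync2li1), and 6 were called lower, against 19.3% (Kif5a, Kif7, Myo15b, Dynll1, Dynlt1a and Dynlt1b). In KO 11 were called higher, against 17.5%, and 9 lower, against 25.5%. The 9 were all 7 light chains tested together with Kif5a and Myo1f, where in WT 3 of the 7 light chains had been called. The 11 were Dync1h1, Dync1i2, Dync2li1, Kif1b, Kif5b, Kif5c, Kif26b, Myo6, Myo9a, Myo9b and Myo18a. Dync1h1 was at 0.39 ± 0.17 in WT and 1.08 ± 0.14 in KO, and Dync1i2 at 0.56 ± 0.16 and 1.10 ± 0.15 (SE). Leaving out 1 gradient lost the WT calls of Dync2li1, Dynll1, Kif5c, Kif7 and Myo15b and the KO calls of Dync2li1, Dynlt1b and Kif1b. Kif7 and Myo15b had few reads, with mean counts of 13.8 and 11.8 over the libraries. Being called in KO and not in WT is not a test of the difference, which the change in translation level gives.

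Further genes outside the symbol rule were listed as partners of each motor family. Most of them work with the motors, but some are motors themselves. These are the kinesins Kifc1, Kifc2, Kifc3 and Cenpe and the myosin heavy chains Myh9, Myh10 and Myh14, which did not enter the heavy chain summaries above. Counts of the partner lists stand beside the 6.29% of all genes tested that rose and the 8.81% that fell. Of 9 kinesin partners tested, 2 rose in translation level and none fell at these thresholds: Klc1, a kinesin light chain of 1848 nt coding length (1.10 ± 0.18), and Kifc1, a minus-end kinesin (1.34 ± 0.30). Against WT, Kifc2 was called lower in KO monosomes, low and high polysomes (-1.51, -1.68 and -2.63). Klc3 was lower in all 3 as well (-1.31, -1.63 and -1.49). Kifc2 had at most 21 reads in a library and Klc3 at most 30. Kifc3 was called higher in all 3 fractions (1.97, 2.22 and 2.20). Of 25 dynein partners, 2 rose and 3 fell, which is near those shares. Those that rose were Dctn1, the large dynactin subunit that binds microtubules (1.01 ± 0.33), and the mitotic adaptor Spdl1 (1.16 ± 0.30). Those that fell were the small dynactin subunits Dctn3 (558 nt, -1.09 ± 0.20) and Dctn5 (546 nt, -1.76 ± 0.32) and the dynein regulator Nde1 (1032 nt, -1.16 ± 0.20).

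Myosins take their light chains from other genes. Of 11 myosin partners listed 10 were tested and none rose at these thresholds. Those that fell included Calm2 (-1.36 ± 0.18) and Calm3 (-1.20 ± 0.18), of 447 nt coding length, and the regulatory light chains Myl12a (-1.35 ± 0.20) and Myl12b (-1.07 ± 0.24), of 516 nt. The non-muscle myosin II heavy chains Myh9 (-0.19 ± 0.25), Myh10 (0.32 ± 0.42) and Myh14 (-0.27 ± 0.47) did not pass. Within fractions Myh14 was called lower in KO in monosomes, low and high polysomes (-1.26, -1.83 and -1.53).

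The 21 motor genes not tested had at most 18 reads in any library. They were Dync1i1 (76 reads over all 18 libraries), Dynlrb2, Dynlt1c, Kif1a, Kif2b, Kif6, Kif9, Kif12, Kif17, Kif19a, Kif27, Kif28, Kif16bos, Myo1g, Myo1h, Myo3a, Myo3b, Myo5b, Myo7b, Myo15 and Myo16. Kif2b, Kif12 and Myo3a had no read in any library. The neuronal kinesin Kif1a had 27 reads in all and the ciliary kinesin Kif17 had 3, which at this depth does not show that they are absent.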

How the data were processed

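Polysome fractions of WT and Dgcr8 KO ESCs were sequenced with a 3′ end kit (QuantSeq FWD). Per the labels and the study's methods, the authors trimmed reads with cutadapt 1.14, aligned unique reads to mm10 with STAR 2.5.3a and counted them per gene with featureCounts 1.5.3, and the deposited values are raw counts. Here limma 3.58.1 (voom, TMM factors from edgeR 4.0.16) was fitted to all 18 libraries with 1 mean per group, over genes with at least 3 CPM in at least 3 libraries, with Benjamini-Hochberg adjustment over 12851 genes. Ratios per gradient used a prior count of 2. The fit was tested on simulated data. Coding lengths, 3′ UTRs and coordinates came from GENCODE M21 (GRCm38), in which 51274 of 51467 genes matched. Only Kif1c overlaps another gene on its strand, a microRNA gene without reads. Members and gene lists were chosen with earlier results of these data known. Values in full were given for members called in the change in translation level with a mean count of at least 50 over the high polysome and monosome libraries, for the dynein subunits, for Kif1b, Kif2c, Kif3a, Kif3b, Kif5b, Kif11, Kif20a, Kif23, Myo5a, Myo6, Myo10, Myo18a and Myo19, and for members called one way in all 3 fractions. Some items under this rule and the gene lists are not reported here. Alternatives were edgeR's quasi-likelihood test, DESeq2 1.42.0, other scaling, filters, thresholds and samples, and a replicate block. The fractions of a number come from 1 gradient per the labels. Their deviations from group means correlated at 0.03 to 0.14 within a gradient (18 pairs, median 0.06, against -0.03 between gradients). WT and KO libraries of the same number correlated at 0.0002 to 0.102 (27 pairs, median 0.026, against -0.019 between numbers), and a cause was not tested. Deviations within a group of 3 sum to 0, which pulls the values between different numbers below 0. Intervals on counts are not given, and the limit of 3 counts covers counting error only.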

Additional observations from a re-analysis of the deposited data

Results flagged for a closer look

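For 7 motor genes the difference between high polysomes and monosomes was not the same in KO and WT by the test of that difference itself (limma, log2 change and adjusted p as in the text above). Those lower in KO were Dynll1 (-1.74), Dynll2 (-1.98), Dynlrb1 (-1.84) and Dynlt1f (-1.85), and those higher were Kif1b (1.28), Myo9a (1.29) and Myo9b (1.68). Groups of 3 libraries are too small to single out a library that stands apart from the others. The calls of Dynlt1f, Myo9a and Myo9b were lost when certain single gradients were left out, as given in the text above.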

How the results depend on the processing

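Of 129 recomputed summary values 114 stayed within 1.5 times the count reported or within 1 SD over gradients. Without a fold threshold 10 members rose in translation level, and monosomes gave 13 members called, low polysomes 26 and high polysomes 35, with 25 in the WT and 40 in the KO translation level. With total counts 1 member rose (Myo9b) and 5 fell, the heavy chain median was 0.10, and the share of higher calls over all genes went from 41.6% to 12% for the change in translation level, from 45.8% to 31.4% in high polysomes and from 40.6% to 28.3% for the KO translation level. Total counts put Kif11 at -0.15, Kif3a at -0.15 and Myo6 at -0.14. With no filter 7 members were called in monosomes, Dynlt1f and Myo9a were no longer called, heavy and light chains differed by 1.88 and the rho of coding length was 0.42. With the stricter filter the rho was 0.53. Leaving out 1 gradient gave 2 to 4 members higher and 3 to 5 lower in translation level, 4 to 5 called in monosomes, 8 to 12 for low and 13 to 15 for high polysomes, 8 to 13 in the WT and 19 to 21 in the KO translation level. The heavy minus light difference then ranged from 1.70 (without WT gradient 2) to 2.54 and the rho from 0.49 to 0.56. Values near 0 that were not called took both signs when 1 gradient was left out: Dync1li1 (-0.11 to 0.048), Dync2li1 (-0.48 to 0.22), Dynlt1b (-1.88 to 0.38), Kif11 (-0.038 to 0.26), Kif2c (-0.32 to 0.17), Kif3a (-0.034 to 0.54), Myo19 (-0.17 to 0.16), Myo5a (-0.62 to 0.25) and Myo6 (-0.054 to 0.50). DESeq2 put Kif2c at 0.0033 and Myo5a at 0.0605, and edgeR put Myo5a at 0.0278. The cause of these moves was not tested. With the gradient as a replicate block, the pairing the labels give, 3 members rose and 4 fell in translation level, the same genes as without it. For KO against WT within a fraction the block was the replicate number. The labels do not say that WT and KO of the same number belong together. With these blocks no count moved past 1.5 times. Low counts limit the Dynlt1 copies, Dync2h1, Kif26b and Myo5a among the genes named. They also limit Myo1d, Myo15b, Kif21a, Myo7a and Kif7, whose mean counts over the libraries were 9.67, 11.8, 12.3, 13.4 and 13.8.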
